A study of Mus musculus with 10 samples.

Results

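The Klrg1 locus was represented by 12 ATAC-seq peaks of 97385 in the whole series. They are the peaks that overlap a window on chromosome 6 (GRCm38) reaching from 17.1 kb upstream to 27.9 kb downstream of the Klrg1 start, and all 12 held enough counts to be tested. The window was selected on differences between Vps34-deficient and control cells already seen there, so the values for that contrast are a description and carry no test. ATAC-seq reads open chromatin by the insertion of sequencing adaptors with the Tn5 transposase. Cells were regulatory T cells (Tregs), sorted as CD4+Foxp3-YFP+TCRb+ from the spleen or the lung of mice aged 10 days. Control mice were Foxp3Cre with Pik3c3 +/+ or Pik3c3 +/fl, so a control could lack 1 copy of the gene in Tregs. Vps34-deficient mice were Foxp3Cre Pik3c3 fl/fl. Pik3c3 encodes Vps34, the lipid kinase that makes phosphatidylinositol 3-phosphate for endosomes and autophagy, and every group carried the Cre, which is driven by Foxp3 and so acts in the Treg lineage. There were 2 libraries of control spleen, 4 of Vps34-deficient spleen and 2 of each genotype in lung. The labels do not say whether the libraries of a group came from separate animals, so the errors and calls rest on the spread between these libraries.

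KLRG1 is an inhibitory lectin-like receptor of natural killer cells and effector T cells. It binds classical cadherins on neighbouring cells, and its cytoplasmic inhibitory motif recruits phosphatases. Tregs that carry it are effector cells late in their differentiation, and many of them reside in tissues such as the lung. Klrg1 (ENSMUSG00000030114.8) lies on the minus strand of chromosome 6 from 122270596 to 122282882, and its start is at 122282882. Peaks are named here by the distance of their centre from that start, downstream meaning into the gene and past its end. Of the 12 peaks, 1 overlapped the start, with 5′ untranslated and coding sequence of exon 1, and 1 lay in an intron 8.21 kb downstream. Another 4 lay 12.5 to 23.7 kb downstream, past the 3′ end of the gene, and 6 lay 0.819 to 14.9 kb upstream, all 10 of them outside annotated genes.

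Of these elements, 5 are printed, on the minus strand of GRCm38 from RefSeq, because they span the range of behaviour at the locus. They are the element with the widest genotype difference in lung, the part of the start peak that lies before the gene, an upstream element with a wide difference in both tissues, and both upstream elements with the highest signal, of which 1 did not pass the thresholds for genotype. Except for the start peak and the peak 6.71 kb upstream, which is shown whole, the central 300 bases are given. Capitals mark matches, on either strand, to AGATAA for GATA factors, TGANTCA for AP-1, AGGAAGT for ETS factors, TGTGGT for Runx factors and the NF-kB consensus.
20.1 kb downstream, chr6:122262643-122262942: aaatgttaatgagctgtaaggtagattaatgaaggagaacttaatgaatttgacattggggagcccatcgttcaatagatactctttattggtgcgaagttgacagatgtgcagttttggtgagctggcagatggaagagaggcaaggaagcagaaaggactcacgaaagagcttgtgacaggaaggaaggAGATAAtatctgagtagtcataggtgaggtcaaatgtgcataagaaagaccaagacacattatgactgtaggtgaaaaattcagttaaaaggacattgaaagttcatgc
start peak, part before the gene, chr6:122282883-122283092: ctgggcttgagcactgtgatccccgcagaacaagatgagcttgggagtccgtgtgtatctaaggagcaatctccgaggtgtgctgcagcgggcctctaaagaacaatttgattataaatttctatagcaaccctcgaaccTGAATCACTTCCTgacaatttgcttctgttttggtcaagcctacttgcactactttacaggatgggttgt
6.71 kb upstream, chr6:122289473-122289705: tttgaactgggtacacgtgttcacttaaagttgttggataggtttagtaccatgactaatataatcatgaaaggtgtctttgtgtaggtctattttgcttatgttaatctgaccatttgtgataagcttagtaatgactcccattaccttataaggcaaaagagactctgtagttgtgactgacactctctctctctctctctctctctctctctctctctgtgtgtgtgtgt
9.06 kb upstream, chr6:122291794-122292093: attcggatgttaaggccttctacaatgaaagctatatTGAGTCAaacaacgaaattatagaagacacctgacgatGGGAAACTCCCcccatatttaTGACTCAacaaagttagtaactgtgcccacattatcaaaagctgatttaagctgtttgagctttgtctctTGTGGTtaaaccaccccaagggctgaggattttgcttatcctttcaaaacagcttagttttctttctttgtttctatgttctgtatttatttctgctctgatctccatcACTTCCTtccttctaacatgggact
11.1 kb upstream, chr6:122293857-122294156: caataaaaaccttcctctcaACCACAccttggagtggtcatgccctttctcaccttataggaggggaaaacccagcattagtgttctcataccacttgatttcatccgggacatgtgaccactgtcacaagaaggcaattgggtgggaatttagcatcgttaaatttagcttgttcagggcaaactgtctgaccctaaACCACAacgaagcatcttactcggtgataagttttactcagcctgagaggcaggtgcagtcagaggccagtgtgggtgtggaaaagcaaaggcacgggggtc
The 20.1 kb window held 1 GATA match, and the start sequence held an AP-1 match that shares 1 base with an ETS match. The 6.71 kb sequence held none of the motifs and ended in a CT and GT repeat. The 9.06 kb window had the most kinds of match, with 2 AP-1 matches, 2 NF-kB matches that overlap and start 1 base apart, 1 Runx match and 1 ETS match, and the 11.1 kb window had 2 Runx matches. Over the central 300 bases, Runx letters were in 7 of 12 Klrg1 peaks and in 26.5% of all 97250 peaks with a sequence. AP-1 letters were in 2 of 12 against 13.0% of all peaks, and ETS and GATA letters were in 3 of 12 each, against 16% and 15.1%. NF-kB was found in 1 of 12 peaks, against 5.70%, and TCF/LEF (CTTTGAT) in 1 of 12, against 5.75%. No window held the letters of STAT (TTCNNNGAA, in 9.30% of all peaks), T-box (GGTGTGA, 4.84%) or forkhead (TGTTTAC, 4.34%), nor the AP-1/IRF composite, PPAR or CTCF consensus (0.334%, 0.0473% and 0.795%). Over whole peaks, the peak 20.1 kb downstream also held 1 ETS, 1 forkhead and 1 TCF/LEF match. Likewise, the start peak held 2 AP-1 matches, the peak 11.1 kb upstream 2 STAT matches and the peak 14.9 kb upstream 1 AP-1 match. A match is a run of letters and not a measured binding site.

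Totals per library were 9405823 to 22439699 counts, with 1 count worth 0.0446 to 0.106 CPM (counts scaled to the library total). Beyond counting noise, the coefficient of variation between replicates was estimated in common over all tested peaks at 17.8%. The identity of the cells was read from peaks within 1 kb of the starts of marker genes. All 6 Treg markers (Foxp3, Il2ra, Ctla4, Ikzf2, Tnfrsf18 and Cd4) had such a peak, with a summed signal of 213 to 279 CPM. The lowest was Cd4, at 3.74 to 8.40 CPM. Some markers of other cells, given below, also had such peaks, so a peak at a start does not alone identify the cells. The promoter peak of Pik3c3 had 52.5 to 67.3 CPM over the 10 libraries and differed by 0.09 in spleen and 0.07 in lung on the log2 scale. A peak at the promoter does not read the deletion of coding exons, so it does not check the genotype labels.

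The first question was how accessibility at Klrg1 differed between Vps34-deficient and control Tregs. In spleen, 7 of the 12 peaks were lower in Vps34-deficient cells, against a background of 1.02% of all tested peaks, and in lung 8 were lower, against 3.74%. The same 7 peaks were lower in both tissues, where 0.812% of all tested peaks were. A peak was called where its adjusted p was below 0.05 and its log2 fold change beyond 0.5 in either direction. Nothing is read from the difference from the background because the window was selected on this contrast. All 12 fitted values were negative in both tissues, with a median log2 fold change of -0.78 in spleen and -1.27 in lung, beside medians of 0.05 and 0.02 over all tested peaks. The Vps34-deficient libraries lay below every control library at 9 of 12 peaks in spleen (11.1% of all tested peaks) and at 12 of 12 in lung (22.0%). In bulk Tregs, fewer cells of the KLRG1+ type and less open chromatin per cell cannot be told apart.

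Summed over the 12 peaks, the locus had 142 and 148 CPM in spleen controls, against 99.1, 93.7, 91.5 and 89.4 CPM in Vps34-deficient spleen. The lung controls had 164 and 224 CPM, and the Vps34-deficient lung libraries 87.7 and 93.3 CPM. Thus all 6 Vps34-deficient libraries fell between 87.7 and 99.1 CPM, below all 4 controls, and the lung controls were the highest. The mean was 145 ± 3.77 CPM (SD, n = 2) in spleen controls, 93.4 ± 4.18 (SD, n = 4) in Vps34-deficient spleen, 194 ± 42.8 (SD, n = 2) in lung controls and 90.5 ± 3.99 (SD, n = 2) in Vps34-deficient lung. Controls exceeded Vps34-deficient cells 1.55-fold in spleen and 2.15-fold in lung. In order of level, Vps34-deficient lung and Vps34-deficient spleen overlapped, while spleen control and lung control did not overlap with them or with each other.

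**Figure D1:**
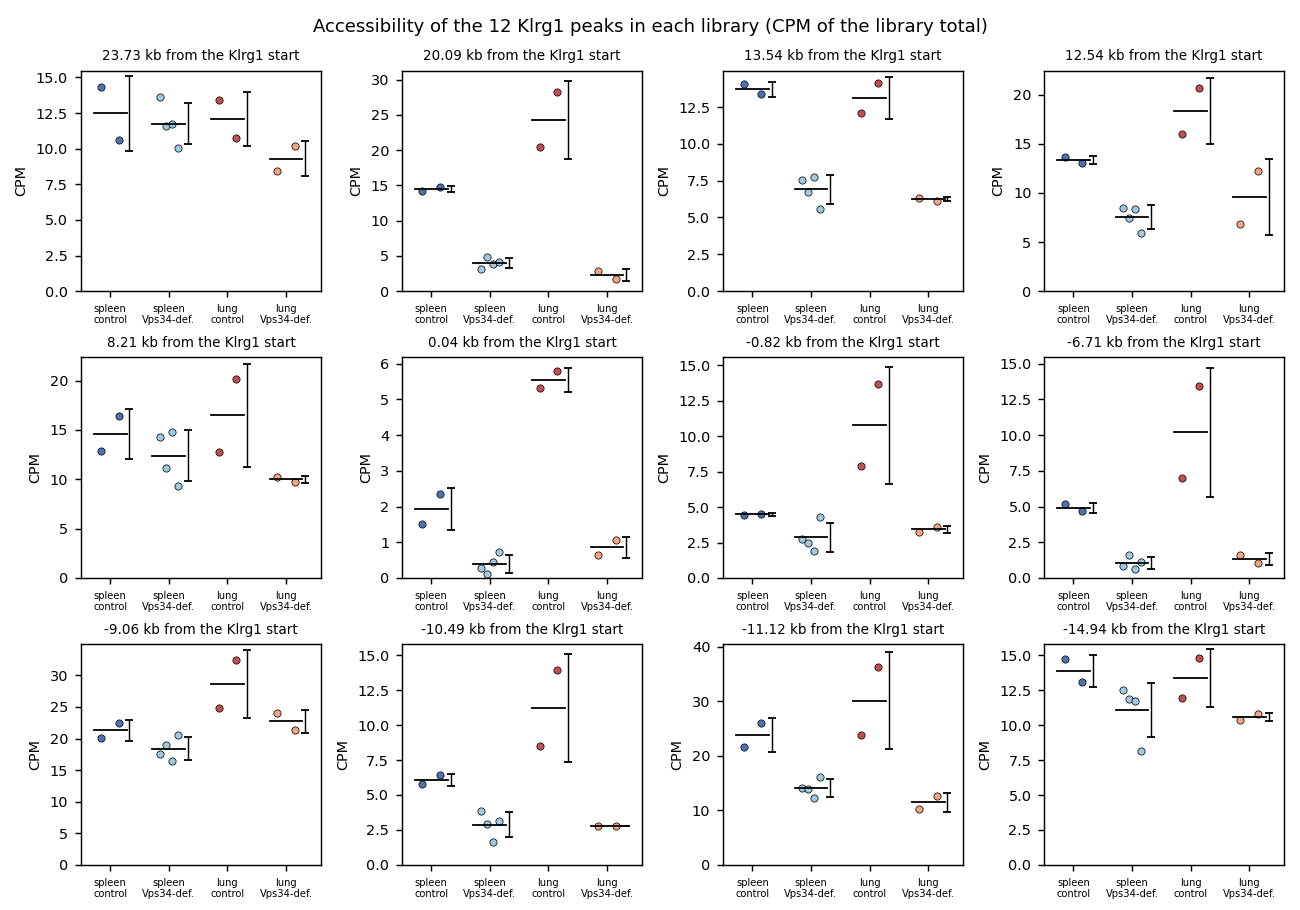
Accessibility of each of the 12 Klrg1 peaks, 1 panel per peak titled by its distance from the Klrg1 start (negative: upstream), in CPM of the library total. Each point is a library, the horizontal line is the group mean and the bar beside it is ±1 SD (n = 2 or 4); at 20.09 kb the Vps34-deficient libraries lie between 1.69 and 4.89 CPM and the controls between 14.2 and 28.2 CPM, whereas at 23.73 kb the spleen groups overlap.

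The peak over the start (122282594 to 122283092, 499 bp) was the weakest of the 12 per length, with a mean of 3.65 CPM per kb. It had 1.52 and 2.34 CPM in spleen controls, against 0.278, 0.122, 0.451 and 0.718 CPM in Vps34-deficient spleen. In lung it had 5.32 and 5.79 CPM in controls, against 0.650 and 1.06 CPM in Vps34-deficient libraries. The groups did not overlap in either tissue, and the start region took 1.06% to 3.24% of the locus signal in control libraries and 0.131% to 1.13% in Vps34-deficient ones. These levels rest on few reads, since the Vps34-deficient spleen libraries held 4, 2, 10 and 10 counts there, and the lung ones 8 and 10. Fitted log2 fold changes were -2.27 (SE 0.467) for spleen and -2.74 (SE 0.536) for lung. The lung call was lost, at -2.33, without Vps34-deficient replicate 1. Just upstream, the peak 0.819 kb before the start (122283500 to 122283902) had 4.41 and 4.55 CPM in spleen controls against 2.78, 2.45, 1.90 and 4.31 CPM. Its lung values were 7.87 and 13.7 CPM in controls, against 3.25 and 3.6 CPM in Vps34-deficient cells. This was the only peak lower in lung (log2 fold change -1.70, SE 0.345) that did not pass in spleen, where the value was -0.67 (SE 0.291).

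The widest difference in lung was 20.1 kb downstream (122262463 to 122263122, 660 bp), past the end of the gene. The spleen controls had 14.2 and 14.7 CPM there, and the Vps34-deficient spleen libraries 3.2, 4.89, 3.79 and 4.16 CPM. The lung controls had 20.4 and 28.2 CPM, and the Vps34-deficient lung libraries 2.92 and 1.69 CPM. The 6 Vps34-deficient libraries lay between 1.69 and 4.89 CPM and the 4 controls between 14.2 and 28.2 CPM. Mean CPM was 3.6-fold higher in controls in spleen and 10.5-fold higher in lung, with log2 fold changes of -1.84 (SE 0.203) and -3.39 (SE 0.281). This element, whose window is printed above with its GATA match, passed the thresholds in 21 of 21 alternative fits in each tissue. Nearer to the gene, the peak 13.5 kb downstream (122269143 to 122269540) had 14.1 and 13.4 CPM in spleen controls, against 7.51, 6.73, 7.76 and 5.60 CPM in Vps34-deficient spleen. Its lung values were nearly the same as in spleen, with 12.1 and 14.1 CPM in controls, against 6.33 and 6.14 CPM in Vps34-deficient cells. The fitted values were -0.99 (SE 0.177) in spleen and -1.10 (SE 0.226) in lung. At the peak 12.5 kb downstream (122270135 to 122270545), which starts just past the 3′ end of Klrg1, controls had 13.6 and 13.1 CPM in spleen and 15.9 and 20.7 CPM in lung. The Vps34-deficient values there were 8.49, 7.46, 8.39 and 5.89 CPM in spleen and 6.82 and 12.3 CPM in lung. The second lung library was nearer to the controls than the first, and the log2 fold changes were -0.82 (SE 0.202) in spleen and -0.99 (SE 0.246) in lung. The lung call was lost, at -0.53, when Vps34-deficient replicate 1 was left out.

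Upstream of the gene, the widest difference was at the peak 6.71 kb before the start (122289473 to 122289705, 233 bp). It had 5.17 and 4.68 CPM in spleen controls, against 0.835, 1.59, 0.632 and 1.15 CPM in Vps34-deficient spleen. In the lung it had 7.02 and 13.4 CPM in controls, against 1.62 and 1.06 CPM in Vps34-deficient libraries. All 6 Vps34-deficient libraries lay between 0.632 and 1.62 CPM, below all 4 controls, and the log2 fold changes were -2.24 (SE 0.332) in spleen and -2.94 (SE 0.414) in lung. A pair of neighbouring peaks followed further upstream. The peak 10.5 kb upstream (122293263 to 122293479) had 5.79 and 6.41 CPM in spleen controls, against 3.83, 2.94, 1.62 and 3.16 CPM in Vps34-deficient spleen. Lung controls had 8.51 and 14.0 CPM there and Vps34-deficient lung libraries 2.76 and 2.75 CPM. The fitted values were -1.10 (SE 0.278) and -2.06 (SE 0.348). The stronger peak 11.1 kb upstream (122293786 to 122294226), whose window is printed above with its pair of Runx matches, had 21.6 and 26.0 CPM in spleen controls, against 14.2, 13.9, 12.3 and 16.2 CPM in Vps34-deficient spleen. Lung controls had 23.8 and 36.4 CPM there, and Vps34-deficient lung libraries 10.2 and 12.7 CPM. The groups did not overlap in either tissue, and the fitted values were -0.75 (SE 0.167) and -1.43 (SE 0.209).

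Not every open element of the locus was lower past the thresholds, and 4 peaks were called in neither tissue. The strongest peak per length, 9.06 kb upstream (122291726 to 122292160, 50.3 CPM per kb), had 20.1 and 22.5 CPM in spleen controls, against 17.5, 19.0, 16.4 and 20.6 CPM in Vps34-deficient spleen. In lung the controls had 24.9 and 32.5 CPM and the Vps34-deficient libraries 24.0 and 21.4 CPM. The spleen groups overlapped, and the log2 fold changes were -0.21 (SE 0.144) and -0.36 (SE 0.170). This peak lay between peaks that were lower in both tissues, 2.35 kb from the one nearer to the gene and 1.43 kb from the one farther from it. It is the element printed above with AP-1, NF-kB, Runx and ETS matches, and its base composition was the lowest in GC of the 12, at 34.0%. With offsets for GC content the lung value was -0.77 and passed the thresholds, and the spleen value was -0.56 and did not. Dropping lung control replicate 2 moved the lung value to -0.11. The intronic peak 8.21 kb downstream (122274349 to 122274998) had 12.8 and 16.4 CPM in spleen controls, against 14.3, 11.1, 14.8 and 9.33 CPM in Vps34-deficient spleen, which overlapped. In lung it had 12.8 and 20.2 CPM in controls, against 10.2 and 9.74 CPM in Vps34-deficient cells, and the fitted values were -0.23 (SE 0.200) and -0.76 (SE 0.246). The lung value was -0.94 and called when lung control replicate 1 was left out, and -0.33 and not called without lung control replicate 2.

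The remaining pair of uncalled peaks lay at the edges of the window. The peak 23.7 kb downstream (122258871 to 122259430) had 14.4 and 10.6 CPM in spleen controls, 13.6, 11.6, 11.7 and 10.0 CPM in Vps34-deficient spleen, 13.4 and 10.7 CPM in lung controls and 8.45 and 10.2 CPM in Vps34-deficient lung. The peak 14.9 kb upstream (122297458 to 122298186) had 14.7 and 13.1 CPM, 12.5, 11.9, 11.7 and 8.18 CPM, 11.9 and 14.8 CPM and 10.4 and 10.8 CPM in the same order. Their log2 fold changes lay between -0.09 and -0.39, smaller than every called difference at the locus. Just outside the window, the nearest peak on the upstream side (122302793 to 122303041) was lower in both tissues, at -1.72 (SE 0.385) in spleen and -1.87 (SE 0.475) in lung. On the other side, the nearest outside peak, 30.0 kb downstream (122252757 to 122252956), had a mean of 0.656 CPM and fitted values of 0.38 (SE 0.653) and 1.72 (SE 0.738), neither of them called. Over the 200 kb on each side of the window, 1 of 13 tested peaks was lower in spleen (1.02% of all tested peaks) and 2 of 13 in lung (3.74%). The second in lung, 105 kb upstream of the Klrg1 start (122387353 to 122388106), was at -1.87 (SE 0.288). Its spleen value was -0.53 (SE 0.219) and was not called. The promoter of M6pr, the nearest protein-coding neighbour and a receptor that sorts enzymes to lysosomes, was 25.9 kb upstream of the Klrg1 start and had 218.5 CPM on average. It differed by -0.07 (SE 0.0641) in spleen and 0.08 (SE 0.0748) in lung, and the promoter of Phc1, a Polycomb subunit, by -0.01 (SE 0.079) and 0.20 (SE 0.0932).

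**Figure D2:**
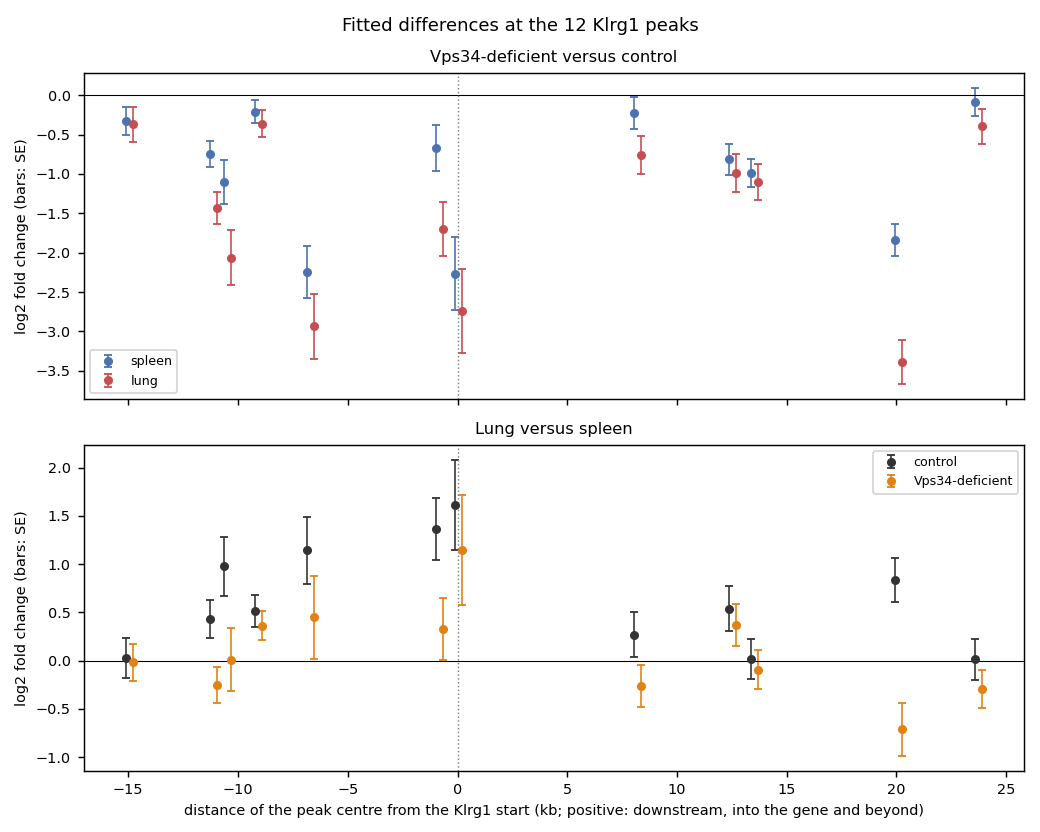
Fitted log2 fold changes (bars: SE) of the 12 Klrg1 peaks against the distance of the peak centre from the Klrg1 start in kb (dotted line at 0; points of a pair are set slightly apart). The upper panel gives Vps34-deficient versus control in spleen and lung, from -0.09 to -3.39, and the lower panel gives lung versus spleen in control and in Vps34-deficient Tregs, where the control values run from 0.01 to 1.62.

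The next comparison asked how the locus differed between tissues. It was not the contrast on which the window was selected, but it shares its libraries with the genotype contrasts, so its values and calls are a description too, and no p is given for single peaks. Tregs of control lung had more accessible chromatin than those of control spleen at 6 of the 12 peaks, where 11.8% of all tested peaks were higher and 3.53% lower. All 12 fitted values were positive, with a median of 0.53 on the log2 scale against 0.04 over all tested peaks, and both lung controls were above both spleen controls at 7 of 12 peaks (28.6% of all tested peaks). At 5 of the 6 peaks that were not called the sign was not stable, and it changed in 50 of 120 alternative values. The difference was widest at the start peak, at 1.62 (SE 0.467), or 2.88-fold in mean CPM. It was 1.36 (SE 0.322) 0.819 kb upstream, 1.14 (SE 0.345) 6.71 kb upstream and 0.98 (SE 0.309) 10.5 kb upstream. With offsets for GC content the value 6.71 kb upstream was 0.84 and was not called, and in DESeq2 the value 10.5 kb upstream was 0.92 and was not called. At the element 20.1 kb downstream it was 0.83 (SE 0.227). The sixth, 9.06 kb upstream, was close to the threshold at 0.52 (SE 0.167), passed in 3 of 20 alternatives and was -0.22 with offsets for GC content. The peaks 13.5 and 14.9 kb from the start, downstream and upstream, differed between control tissues by 0.02 (SE 0.208) and 0.03 (SE 0.212), and the peak 23.7 kb downstream by 0.01 (SE 0.213).

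The lung side of this comparison rests on 2 libraries that were not alike at Klrg1. Lung control replicate 2 was above replicate 1 at 11 of 12 peaks, with a median ratio of 1.34, while over all tested peaks it was above in 47.6%. At the start peak the difference between control tissues was 1.46 without lung control replicate 2, in place of 1.62. Without lung control replicate 2, 0 of 12 peaks were called higher in control lung, and the value was 0.48 at the element 20.1 kb downstream, 0.80 at the peak 0.819 kb upstream, 0.49 at 6.71 kb, 0.21 at 9.06 kb and 0.47 at 10.5 kb upstream. Leaving out spleen control replicate 1 also gave 0 calls, and leaving out spleen control replicate 2 gave 1. Without lung control replicate 2, 5 peaks were lower in Vps34-deficient lung, and without lung Vps34-deficient replicate 1, 4 were. In spleen, 4 were called without control replicate 1 and 3 without control replicate 2. The calls 20.1 kb downstream and 6.71 kb upstream were kept in both tissues whichever library was left out, and those 10.5 and 11.1 kb upstream were kept in lung. In spleen the peak 13.5 kb downstream was not called without control replicate 1, the start peak (-1.97) and the peak 11.1 kb upstream (-0.64) were not called without control replicate 2, and those 12.5 kb downstream and 10.5 kb upstream without either. That pair was also lost without Vps34-deficient replicate 2 or 4, and the upstream one without replicate 3. In lung the peak 13.5 kb downstream was lost without lung control replicate 2 (-0.94) or either Vps34-deficient library, and the peaks 12.5 kb downstream and 0.819 kb upstream without lung control replicate 2 (-0.74 and -1.18) or Vps34-deficient replicate 1.

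Among Vps34-deficient Tregs, 0 of 12 peaks were called different between lung and spleen by edgeR's quasi-likelihood test, while 17.2% of all tested peaks did in either direction. At an unadjusted p under 0.05 there were 2 of the 12, against 30120 of 97109 over all tested peaks, and DESeq2 also called 0. Fitted values were positive at 6 and negative at 6, with a median of -0.00. At the element 20.1 kb downstream the direction was opposite to that in controls, at -0.71 (SE 0.275, not called), and both Vps34-deficient lung libraries lay below all 4 spleen ones. It passed with library size as the sole scaling (-0.76) and without spleen Vps34-deficient replicate 1 (-0.85), and it was not called when a Vps34-deficient lung library was dropped, at -1.13 (replicate 1 dropped) and -0.34 (replicate 2 dropped). At the start peak the value was 1.14 (SE 0.569, not called), on counts of 10 or fewer per library, and it ran from 0.80 to 1.53 as single libraries were left out. The summed locus was 0.969 times as accessible in Vps34-deficient lung as in Vps34-deficient spleen, and 1.34 times as accessible in control lung as in control spleen.

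The difference between tissues in the genotype effect is given by the interaction term, which contains the contrasts on which the window was selected and so is a description too. The fitted decrease was larger in lung than in spleen at 12 of 12 peaks, with a median interaction of -0.50 against -0.08 over all tested peaks, but at 5 of them the sign changed in some alternatives (21 of 226 values over the 12 peaks). No peak was called (0 of 12, and 0.0% of all tested peaks) by edgeR's quasi-likelihood test, and 4 of the 12 had an unadjusted p under 0.05, as did 7060 of 97109 peaks. The widest value was at 20.1 kb downstream, at -1.55 (SE 0.356). DESeq2 on all libraries also called 0 of 12.

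Within the locus, signals varied together over the 10 libraries. Correlations of log2 CPM between the 66 pairs of peaks ran from r = -0.32 to 0.945 with a median of 0.751. Among the 21 pairs of peaks called lower in both tissues they ran from 0.743 to 0.945. These points share libraries, depth and the 4 groups, so they describe the same group differences again.

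Genes whose summed accessibility followed that of Klrg1 most closely over the 10 libraries were sought among 12213 genes, where the median correlation was 0.005 and 147 genes reached 0.9. Highest was Borcs5, a subunit of the complex that positions lysosomes (13 peaks, r = 0.991). Il10, which encodes a suppressive cytokine of Tregs, came next (4 peaks, r = 0.990). The others were Plekhg3 (r = 0.982), Lmnb1, which encodes lamin B1 (r = 0.979), Slc22a15 (r = 0.978) and Sdcbp2 (r = 0.972). When each peak was scaled to its mean before summing, Il10 was highest (r = 0.994) and was the only 1 of the 6 that remained. At Il10 the sum was 47.8 and 53.8 CPM in spleen controls, against 29.0, 28.9, 25.4 and 29.3 CPM in Vps34-deficient spleen. In lung it was 61.7 and 88.8 CPM in controls, against 27.5 and 25.7 CPM in Vps34-deficient cells. As at Klrg1, the second lung control was the highest library and the 6 Vps34-deficient libraries were the lowest. The genes were picked by their correlation with the Klrg1 sum, so this order follows from that choice. It describes the same group differences again.

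**Figure D3:**
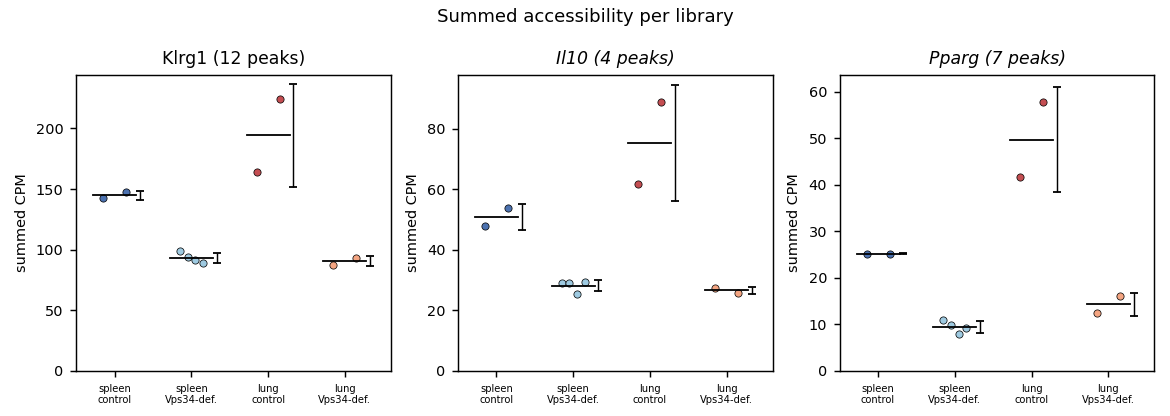
Summed CPM of the peaks of Klrg1 (12 peaks), Il10 (4 peaks) and Pparg (7 peaks) in each library, with group means (lines) and ±1 SD (bars; n = 2 or 4). For all 3 genes the Vps34-deficient libraries lie below the controls of their tissue and lung control replicate 2 is the highest, at 224 CPM for Klrg1, 88.8 for Il10 and 57.7 for Pparg.

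Genes related to KLRG1 by function were read beside the locus, over peaks in each gene or within 10 kb. The ligands E-, N- and R-cadherin (Cdh1, Cdh2 and Cdh4) and the phosphatases SHIP-1 (Inpp5d) and SHP-2 (Ptpn11) had 41 tested peaks. In spleen 0 of these were lower and 0 higher by edgeR's quasi-likelihood test, 5 of 41 had an unadjusted p under 0.05, against 13901 of 97109 over all tested peaks, and DESeq2 called 1 lower. In lung 2 (4.88%) were lower, 1 each at Cdh1 and Inpp5d, a share near the 3.74% of all tested peaks, and 0 were higher in both edgeR and DESeq2, with 6 of 41 at an unadjusted p under 0.05, against 19705 of 97109. Their medians were -0.07 in spleen and -0.11 in lung. In control lung against control spleen 4 of 41 were higher, 3 of them at Cdh4, and 2 of 41 lower, both at Inpp5d, where 11.8% of all tested peaks were higher and 3.53% lower. The killer cell lectin-like receptors and their relatives, most of them in a cluster elsewhere on chromosome 6, had 46 peaks at 14 of 15 genes. In spleen 0 were lower and 0 higher in both edgeR and DESeq2, with 4 of 46 at an unadjusted p under 0.05, and in lung 1 was lower, at Klrb1b, and 1 higher, at Klrb1c. Their medians were 0.03 in spleen and 0.13 in lung, and in control lung against spleen 7 of 46 were higher and 5 of 46 lower, beside the same 11.8% and 3.53%. Over all tested peaks, 0.441% were higher in Vps34-deficient spleen and 1.22% in Vps34-deficient lung.

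Genes of terminal and tissue effector Tregs, a list written with earlier results of these data known, had 209 peaks at 21 genes. In spleen 8 of these (3.83%) were lower, against 1.02% of all tested peaks, and 0 higher (10 lower and 1 higher in DESeq2). At an unadjusted p under 0.05 there were 39 of 209 in spleen and 85 of 209 in lung, against 13901 and 19705 of 97109 over all tested peaks. In lung 30 (14.4%) were lower, against 3.74% of all tested peaks, and 1 higher (29 lower and 1 higher in DESeq2). The medians were -0.01 in spleen and -0.26 in lung, beside 0.05 and 0.02 over all tested peaks. In control lung against control spleen 44 of 209 were higher, where 11.8% of all tested peaks were, and 2 lower, where 3.53% were. Pparg, a nuclear receptor of tissue Tregs, was lower at 3 of 7 peaks in spleen and 5 of 7 in lung, and Il10 at 2 of 4 and 4 of 4. Tigit, an inhibitory receptor, was lower at 2 of 6 and 3 of 6, and the single peak of Gzmb, which encodes granzyme B, was lower in both tissues (-0.95 and -1.50). Il1rl1, which encodes ST2, was lower at 0 of 9 peaks in spleen and 3 of 9 in lung, and Rora at 0 of 53 and 6 of 53. The lowest spleen value at Il1rl1 was -1.21. The study, with DESeq2 and peaks assigned to the nearest gene, names Il1rl1 among genes whose accessibility differed in both tissues. Genes of the same list at which 0 peaks were lower in either tissue included Gata3 (15 peaks), Batf (7), Irf4 (11) and Lag3 (10).

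Because other cells can carry KLRG1, markers of CD8 T and NK cells and of group 2 innate lymphoid cells were read too. Of 7 CD8 and NK markers, 5 had a peak within 1 kb of a start, and Ncr1 and Klrb1c had none. Their sum was 35.8 to 42.7 CPM in lung controls and 46.8 to 56.5 CPM in Vps34-deficient lung, the opposite direction to Klrg1. In spleen it was 41.2 to 49.9 CPM in controls, against 39.8 to 53.0 CPM in Vps34-deficient libraries. Group 2 innate lymphoid cell markers (4 of 5 with a peak, Il13 with none) summed to 18.9 to 19.97 CPM in lung controls and 15.1 to 16.1 CPM in Vps34-deficient lung, which did not overlap and lay in the same direction as Klrg1. In spleen they summed to 14.6 to 17.3 CPM in controls and 12.8 to 15.4 CPM in Vps34-deficient libraries. Within that list Il5 had a higher mean in lung controls than in Vps34-deficient lung (5.05 against 1.13 CPM), and Nmur1 and Calca had a lower one. Myeloid markers (2 of 4 with a peak, Lyz2 and Csf1r with none) were also higher in controls, at 24.0 to 26.0 against 15.1 to 17.8 CPM in lung and 21.7 to 23.8 against 15.2 to 20.4 CPM in spleen. B cell markers had a peak at 1 of 4 genes, Pax5, with 13.2 to 18.8 CPM in lung controls and 15.4 to 19.1 CPM in Vps34-deficient lung, and 13.5 to 14.6 and 13.9 to 18.5 CPM in spleen. Epithelial and endothelial markers (4 of 5 with a peak, Sftpc with none) were at 45.3 to 55.0 CPM in lung controls and 45.8 to 49.5 CPM in Vps34-deficient lung, and at 52.1 to 53.7 and 48.9 to 51.8 CPM in spleen. Most of that sum was Epcam and Pecam1, with lower means in control lung than in control spleen (19.7 against 24.4 and 26.9 against 27.0 CPM). Nkx2-1 and Cdh5 were weak and had higher means in control lung (1.80 against 0.849 and 1.73 against 0.673 CPM). The part of the lymphoid and myeloid markers that moved with genotype in the Klrg1 values was not tested.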

How the data were processed

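Per the study's methods, the authors trimmed paired reads (trimmomatic), aligned them with BWA, removed duplicates, shifted ends for Tn5, kept nucleosome-free fragments, called peaks per sample with MACS2, kept those in at least 50% of a genotype's replicates, merged them and counted reads with bedtools. The submitters' processing notes also name cutadapt 1.9, Picard 1.65, SAMtools and MACS2 2.1.0.20150603. The deposited values are raw counts per peak and library. Both mates were counted (91.5% to 96.5% even counts), so counts overstate independent fragments. The methods name mm9, but 51.2% of 21951 protein-coding starts lay in a peak on GRCm38 (GENCODE M21), against at most 2.82% after shifts of 100000 bp. The methods give the spleen group sizes reversed, and the labels were followed.

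Counts were filtered (filterByExpr, 97109 peaks), scaled (TMM) and fitted as 4 groups over all 10 libraries with edgeR 4.0.16 in R 4.3.3 (quasi-likelihood test, Benjamini-Hochberg). A call needed an adjusted p below 0.05 and a log2 fold change beyond 0.5 in either direction. Printed CPM are scaled to the library total, and fold changes are TMM-scaled. The fitting script was tested on simulated counts. Members and lists were chosen with earlier results of these data known. All 12 peaks are named, and the 6 most similar genes were those with the highest Pearson r of log2 summed CPM among genes with at least 3 peaks. Alternatives were other scalings, DESeq2 1.42.0, filters, thresholds, halved counts, chromosome Y and GC adjustment (loess span 0.3), a replicate block and each library left out. Motifs were counted on both strands with pysam 0.24.0. The study's single-cell libraries were not used here. Values of 1 marker gene are not reported here.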

Additional observations from a re-analysis of the deposited data

How the results depend on the processing

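Called genotype values changed sign in 0 of 145 alternative values in spleen and 0 of 166 in lung, and those of uncalled peaks in 2 of 105 and 0 of 84. Between control tissues the sign changed in 1 of 118 values of called peaks and in 50 of 120 of uncalled ones, between Vps34-deficient tissues in 13 of 238 (4 peaks), and for the interaction in 21 of 226 (5 peaks). In place of 7 peaks lower in Vps34-deficient spleen, 4 were called with a mean count of 20 in every group (10 peaks kept) or an absolute log2 fold change above 1, and 3 at an adjusted p below 0.01. In place of 6 peaks higher in control lung, 3 were called with that count filter, 3 with the wider fold change and 1 at the stricter p. With library size alone, 1 peak differed between Vps34-deficient lung and spleen in place of 0. In place of 8 peaks lower in Vps34-deficient lung, 6 were called when only the lung libraries were fitted, and 6 with DESeq2 in that tissue. In both fits the peaks 13.5 and 12.5 kb downstream were not called (-1.10 and -0.98, and -1.07 and -0.95). Leaving out each library in turn gave 3 to 7 calls in spleen, 4 to 9 in lung, 0 to 6 between control tissues, 0 to 1 between Vps34-deficient tissues and 0 for the interaction. A control arm left with 1 library is assumed to vary like the other groups. Offsets for GC content gave -0.22 in place of 0.52 for the control tissue difference 9.06 kb upstream, and 9 calls in lung. Scaling each peak to its mean left 1 of the 6 most similar genes. Causes of these shifts were not tested.

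Replicate numbers were not taken to pair the libraries, since the labels tie them to no animal or batch and residuals of same-numbered libraries correlated at -0.098 to 0.063 over all tested peaks. In groups of 2 these residuals mirror each other. The chromosome Y signal of same-numbered spleen and lung libraries of a genotype was high in both or low in both (56.9 and 67.6, 7.03 and 12.8, 9.88 and 21.4, and 64.8 and 63.4 CPM). A shared animal is thus possible but not shown. With a replicate block 3 peaks were lower in spleen, where those 13.5 and 12.5 kb downstream and 10.5 and 11.1 kb upstream were not called (-0.93, -0.73, -0.83 and -0.73). With that block 8 were lower in lung and 4 higher in control lung, where those 6.71 and 9.06 kb upstream were not called (1.08 and 0.51), and at the start peak the interaction was 0.46 in place of -0.47 and the difference between Vps34-deficient tissues 2.08 in place of 1.14. Values at the start peak rest on 2 to 10 counts per Vps34-deficient library.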
